A study of Mus musculus with 12 samples.

Results

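The amyloid beta preparations called oAb and fAb were compared directly with each other in IMG, a mouse microglial line made to grow without limit. Microglia are the macrophages that live in the brain. The comparison took the 4 libraries of cells given fAb and the 4 of cells given oAb, 8 of the 12 libraries in the study, and every gene that both deposited tables share (41325 identifiers). All cells were wild type, of the C57Bl6/J strain and of 1 passage. They received scramble, oAb or fAb for 8 h, and RNA was sequenced with a stranded mRNA kit. The scramble group, also of 4 libraries, is given here only as the background level. In the submitters' design text oAb carries the word fibrillar and fAb the word oligomeric, the reverse of what the letters imply, so the preparations are called by their labels and which of them is fibrillar is not decided. The labels do not say that the 4 libraries of a group came from separate cultures, so the p-values measure the spread between these libraries, which may be technical. IMG is a single line, without the neurons and astrocytes that surround microglia in tissue.

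Amyloid beta is cut from the amyloid precursor protein by secretases and accumulates in Alzheimer's disease. Small soluble assemblies and long fibrils of the peptide are both bound by pattern recognition receptors on microglia, among them the lipopolysaccharide co-receptor CD14, toll-like receptors, the scavenger receptor CD36, and TREM2, which signals through the adaptor TYROBP. Toll-like receptors drive NF-kB, which switches on cytokine and chemokine genes, and the interferon regulatory factors, which lead through secreted interferon beta to the interferon-stimulated genes.

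No gene separated fAb from oAb at a Benjamini-Hochberg adjusted p under 0.05 by the quasi-likelihood test of edgeR (0 of 10878 genes tested, 0%, smallest adjusted p 0.375). At an unadjusted p under 0.05 there were 1391 genes (12.8%), of which 521 were higher in fAb (4.79%) and 870 lower (8%). The larger number of lower genes did not hold under upper quartile scaling (736 higher and 695 lower) or against oAb 3 and 4 only (641 higher and 557 lower), so the shares given below beside each list hold for the main scaling and all 8 libraries. Without oAb 2, fAb 1 or fAb 2 the 1391 became 732, 734 and 687. DESeq2, run on the same libraries, called 16 genes, and limma voom called 0 with 1330 at an unadjusted p under 0.05. A p that misses the threshold does not show that the preparations act alike, so intervals are given beside the main differences. For 8928 genes (82.1%), the 95% interval of the difference lay inside a 1.5-fold change in either direction, and for 10266 (94.4%) inside 2-fold. These intervals hold for 1 gene at a time. The median interval reached 0.18 to each side on the log2 scale, the median difference was -0.01, and the middle 90 percent of differences ran from -0.36 to 0.24. In 10 genes the whole interval lay beyond 1.5-fold. The share within 1.5-fold was 89.3% with a filter at a mean of 2 CPM and 54.4% with no filter, so it moved with abundance. Counts of list genes within 1.5-fold below are to be read beside these shares.

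The libraries held between 14566206 and 18124419 counts, of which 2.73% to 3.37% were mitochondrial and 5.05% to 5.69% came from cytosolic ribosomal protein genes. All 14 markers of microglia and macrophages had counts in these 8 libraries, 13 of them enough to be tested, with a summed level, scaled by transcript length, of 5567 to 6297 TPM in oAb and 5680 to 6047 TPM in fAb. The exception was Tmem119. Of 8 neuronal markers 5 were at 0, and the summed level of the neuronal list was 1.85 to 2.35 TPM. The astrocyte list summed to 74.6 to 81.9 TPM in oAb and 85.3 to 88.5 TPM in fAb, with Aqp4 and S100b at 0 and only Gja1 and Aldoc high enough to be tested. Its sum was higher in every fAb library than in any oAb library, and its part in the results was not tested. Markers of oligodendrocytes, fibroblasts, endothelial cells, lymphocytes and neutrophils summed to at most 43.5, 2.55, 5.67, 0.132 and 2.88 TPM. In bulk RNA, fewer cells of a kind and less RNA per cell cannot be told apart.

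Libraries 1 and 2 of oAb stood apart from the other 6. On the first principal component (39.9% of the variance) they scored 22.7 and 27.0, while oAb libraries 3 and 4 scored -11.7 and -3.26 and the fAb libraries lay between -19.1 and -4.13. So the largest axis of variation among the 8 libraries did not separate the preparations. The second component (21.3%) put fAb libraries 1 and 2 at one end and oAb libraries 3 and 4 at the other. Each result below is therefore given, where it matters, against all 4 oAb libraries, against oAb 3 and 4 only, and against oAb 1 and 2 only. This split rests on the values themselves, which favours small p-values against oAb 1 and 2, so those are descriptive. With oAb 3 and 4 edgeR called 0 of 11026 genes (0%, and 1198 at an unadjusted p under 0.05). With oAb 1 and 2 it called 845 of 11064 (7.64%), 115 higher in fAb (1.04%) and 730 lower (6.6%).

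**Figure D1:**
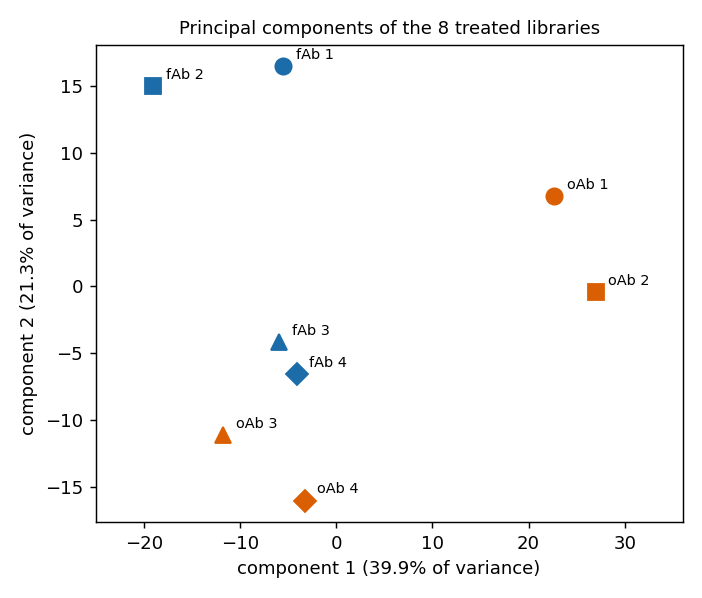
Principal components of log2 normalised CPM over the genes tested, each point 1 library, orange for oAb and blue for fAb, with the library number beside it. On component 1 (39.9% of the variance) oAb 1 and 2 lie at 22.7 and 27.0, and oAb 3 and 4 lie among the fAb libraries.

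The cytokines that NF-kB drives were at the same order of magnitude in both preparations. Levels below are counts scaled to library size after TMM normalisation (CPM). Il1b, the precursor of interleukin 1 beta, stood at 801, 846, 1014 and 1015 CPM in oAb libraries 1 to 4 and 923, 979, 1025 and 1012 CPM in fAb libraries 1 to 4, against 0.262, 0.181, 0.0724 and 0.0620 CPM in the 4 scramble libraries. The groups overlapped, with the lowest values in oAb 1 and 2. The log2 difference, fAb minus oAb, was 0.10 (95% interval -0.08 to 0.28), which is 0.949 to 1.21 times the oAb level. Against oAb 3 and 4 it was -0.03, and against oAb 1 and 2 it was 0.25 with an edgeR adjusted p of 0.0239. Il1a, the sister cytokine, gave 470.1, 468, 591 and 571 CPM in the oAb libraries and 540.0, 578, 553 and 553 CPM in the fAb libraries, with the same 2 oAb libraries lowest. Its difference was 0.08 (95% interval -0.09 to 0.25), or -0.05 against oAb 3 and 4 and 0.24 against oAb 1 and 2 (edgeR adjusted p 0.0148).

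Tnf, the tumour necrosis factor gene, had a narrower interval than Il1a, Il1b or Il6. It measured 572, 598, 621 and 625 CPM in the oAb libraries and 603, 592, 610.2 and 616 CPM in the fAb libraries, against 9.93 to 15.6 CPM in scramble. All 8 treated libraries lay between 572 and 625 CPM, the groups overlapped, and the difference was 0.00 (95% interval -0.10 to 0.11), or 0.932 to 1.08 times the oAb level. Il6 gave 56.5, 56.5, 64.2 and 62.4 CPM in the oAb libraries and 57.8, 61.2, 49.9 and 53.6 CPM in the fAb libraries, overlapping, with a difference of -0.11 (95% interval -0.27 to 0.05). Csf3, the granulocyte colony-stimulating factor gene, had no count in any scramble library and gave 96.7, 99.4, 69.7 and 82.8 CPM in the oAb libraries and 75.6, 57.8, 84.9 and 86.3 CPM in the fAb libraries. oAb 1 and 2 lay above and fAb 2 below the other 5, and the interval was wide (-0.19, -0.54 to 0.15). Ccl3, a chemokine, and Acod1, which makes itaconate, were the most abundant of the list by length-scaled level, at 6157 and 5957 TPM in oAb and 6652 and 6174 TPM in fAb. Their log2 differences in CPM were 0.03 (-0.12 to 0.17) and -0.03 (-0.20 to 0.14).

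Nos2, the inducible nitric oxide synthase (chr11:78920787-78960254 of mm10), was the fixed cytokine-response gene whose groups did not overlap. The libraries read 273, 273, 270.4 and 301 CPM in oAb libraries 1 to 4 and 227, 222, 261 and 250.5 CPM in fAb libraries 1 to 4, means of 279.5 ± 14.6 and 240.1 ± 18.5 CPM (SD, n = 4 each). Every fAb library was below every oAb library, as in 354 genes of those tested (3.25%; the reverse order held in 332, 3.05%). The difference was -0.22 (95% interval -0.35 to -0.08), unadjusted p 0.00416 and adjusted p 0.375 in edgeR, and it was -0.24 against oAb 3 and 4 and -0.19 against oAb 1 and 2. It did not pass the threshold in any of these fits.

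Over the whole list of NF-kB targets, cytokines and chemokines, 38 of 46 genes could be tested and 0 passed. The signs were 10 positive and 28 negative, the median was -0.07 beside -0.01 for all genes, and 36 of the 38 intervals lay within 1.5-fold. At an unadjusted p under 0.05 there were 5 lower genes and 1 higher, beside 8% and 4.79% of all genes. The lower ones were Cxcl16, a transmembrane chemokine (-0.28), Nfkb2, a subunit of the factor itself (-0.25, or -0.13 against oAb 3 and 4), Il27 (-0.25), Nos2 and Traf1 (-0.13). The higher one was Tnfaip3, a brake on NF-kB signalling (0.14).

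The interferon response differed by less than 1.5-fold in nearly all of its genes. Cxcl10, the chemokine that interferon and NF-kB both induce, and Isg15, a ubiquitin-like protein, are shown by the sequence upstream of their start, because the elements bound by the factors of both lists can be read there. Capitals mark matches to an interferon-stimulated response element (GAAA, any 2 bases, GAAA) or an NF-kB site (GGGA, any 2 bases, TTCC), searched on both strands in the 250 bases before the start site, from RefSeq on GRCm38.p6, minus strand, chr5:92348890-92349139 for Cxcl10 and chr4:156200819-156201068 for Isg15.
Cxcl10: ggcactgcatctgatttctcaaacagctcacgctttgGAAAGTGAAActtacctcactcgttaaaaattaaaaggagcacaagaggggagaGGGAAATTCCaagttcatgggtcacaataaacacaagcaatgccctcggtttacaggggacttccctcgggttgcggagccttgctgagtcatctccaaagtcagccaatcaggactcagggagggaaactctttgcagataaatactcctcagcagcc
Isg15: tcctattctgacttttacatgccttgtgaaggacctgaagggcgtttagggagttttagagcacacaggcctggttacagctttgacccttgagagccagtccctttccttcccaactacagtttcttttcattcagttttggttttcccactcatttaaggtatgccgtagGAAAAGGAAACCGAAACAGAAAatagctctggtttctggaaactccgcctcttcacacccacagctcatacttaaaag
In Cxcl10 the first capitals, from -213, match the interferon element and the second, from -159, match the NF-kB letters given above. Sites with other letters were not searched for. In Isg15 the capitals are 3 overlapping interferon elements. The shares that follow were counted over the whole promoter window of each gene, which was not cut to those 250 bases. The interferon element occurred in 21 of the 33 listed genes that have a window (63.6%). Among all 27025 genes with a window the share was 3.99%, and among the genes tested that have one it was 4.09%. The NF-kB site occurred in 6 of 26 genes of the cytokine list (23.1%) and in 6 of the 33 interferon genes (18.2%). Its share was 1.63% of all genes with a window and 1.82% of the genes tested that have one. A match is a description of the letters, not of a bound site.

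Cxcl10 read 944, 959, 999 and 1007 CPM in the oAb libraries and 884, 895, 1018 and 968 CPM in the fAb libraries, beside 2.25 to 2.83 CPM in scramble. The groups overlapped, with fAb 1 and 2 lowest, and the difference was -0.05 (95% interval -0.18 to 0.07). Isg15 read 454, 476, 482 and 510.3 CPM in the oAb libraries and 420.3, 445, 479.8 and 446 CPM in the fAb libraries, beside 0.931 to 1.59 CPM in scramble, also overlapping, with a difference of -0.10 (95% interval -0.22 to 0.02). Ifitm3, a membrane protein that blocks viral entry, was the most abundant of the list (2692 TPM in oAb and 2662 TPM in fAb) and differed by -0.10 (-0.26 to 0.06). Ifnb1, which encodes interferon beta, was under the expression filter and was not tested. It measured 0.263, 0.364, 0.131 and 0.191 CPM in the oAb libraries and 0.348, 0.223, 0.197 and 0.243 CPM in the fAb libraries, which is a handful of counts per library.

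Of the 44 interferon genes 43 were tested, 0 passed, and 42 intervals lay within 1.5-fold, beside 82.1% of all genes. The differences were negative in 34 and positive in 9, with a median of -0.07. That median was -0.13 against oAb 3 and 4 and 0.03 against oAb 1 and 2, so its sign depended on which oAb libraries were used. The ends of the list were Mx2, an antiviral GTPase (0.13, -0.03 to 0.30), and Isg20, an exonuclease (-0.33, -0.53 to -0.13). At an unadjusted p under 0.05 there were 3 lower genes, Isg20, Oas3 (-0.19) and Irf7 (-0.19), and 0 higher, and 3 of 43 is near the 8% of all genes that were lower at that p.

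**Figure D2:**
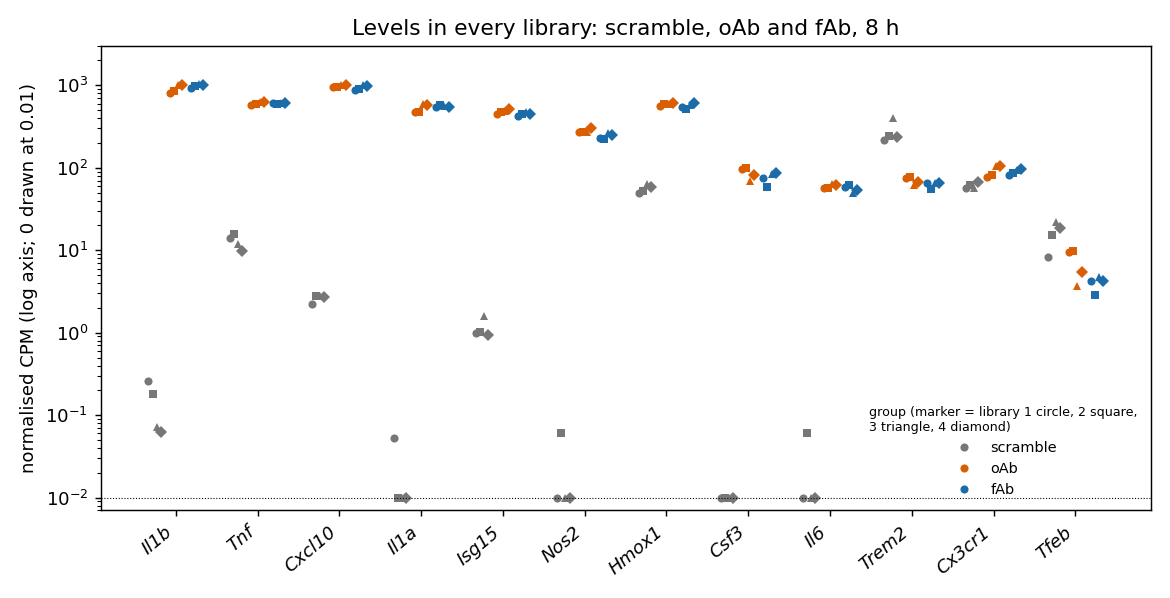
Normalised CPM on a log axis of 12 genes in every library, grey for scramble, orange for oAb and blue for fAb, with a marker shape per library number and values of 0 drawn on the dotted line. The oAb and fAb points lie side by side for each cytokine and interferon gene, while the oAb points of Tfeb spread from 3.67 to 9.68 CPM.

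Receptors that bind amyloid and guide its uptake gave differences of both signs. Of 28 tested genes 14 were positive and 14 negative, the median was 0.00, and 27 intervals lay within 1.5-fold. At an unadjusted p under 0.05 there were 4 higher (Cd36, Tlr4, Itgam and Pilra) and 1 lower (Cd14), beside 4.79% higher and 8% lower of all genes. Trem2, the receptor with coding variants linked to Alzheimer's disease risk, read 74.6, 76.9, 61.5 and 66.7 CPM in the oAb libraries and 64.6, 55.1, 66.2 and 65.8 CPM in the fAb libraries, beside 216, 241, 401 and 235 CPM in scramble. The groups overlapped, and the difference was -0.15 (95% interval -0.33 to 0.03), or -0.01 against oAb 3 and 4. Cd14 read 1152, 1219, 1193 and 1300.5 CPM in the oAb libraries and 979.8, 955, 1146 and 1174 CPM in the fAb libraries, with fAb 1 and 2 lowest, a difference of -0.19 (95% interval -0.36 to -0.03) and an unadjusted p of 0.0257. Tlr4, which pairs with CD14, gave 0.17 (0.02 to 0.33) and Cd36 0.29 (0.07 to 0.51), neither past the adjusted threshold.

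Itgam, the alpha chain of complement receptor 3, was among the 12 genes with the smallest unadjusted p, a choice made after the values were seen. It read 261, 248, 250.3 and 258 CPM in the oAb libraries and 303, 312, 283 and 292 CPM in the fAb libraries. All 4 fAb libraries were above all 4 oAb libraries, the difference was 0.23 (95% interval 0.12 to 0.33), and it kept its size against oAb 3 and 4 (0.24) and against oAb 1 and 2 (0.22, adjusted p 0.04 in edgeR). DESeq2 called it, with an adjusted p of 0.00797. Its count is uncertain, because 68.7% of its exon bases overlap the predicted gene Gm49368 on the same strand.

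Markers of microglial state did not separate the groups past the threshold. The homeostatic list, genes of resting microglia, had a median of -0.06 over 14 of 21 genes, of which 8 had intervals within 1.5-fold. Cx3cr1, the fractalkine receptor, read 77.7, 81.2, 106 and 106 CPM in the oAb libraries and 81.4, 85.6, 93.0 and 95.7 CPM in the fAb libraries, with the 2 highest values in oAb 3 and 4 and a difference of -0.06 (95% interval -0.30 to 0.18). Csf1r, the receptor on which microglia depend for survival, gave -0.09 (-0.28 to 0.10). P2ry13, a nucleotide receptor, had the list's largest difference (0.67, 0.09 to 1.26, unadjusted p 0.0255), and Selplg, a selectin ligand, had the smallest unadjusted p (0.00126, difference -0.40).

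The list of disease-associated microglia, a state described around amyloid plaques, had 15 positive and 15 negative differences and a median of -0.01. Of its 30 genes 29 had intervals within 1.5-fold. Lyz2, lysozyme, differed by 0.03 (-0.13 to 0.19) and Spp1, osteopontin, by 0.08 (-0.04 to 0.21). Apoe was the exception. It is the lipid carrier whose variants are the best known common risk factor for Alzheimer's disease, and it was scarce in this line, at 1.25, 1.75, 0.525 and 0.954 CPM in oAb and 0.754, 0.782, 0.853 and 0.669 CPM in fAb. Its difference of -0.53 had an interval of -1.28 to 0.21, which takes in both no difference and a level 2-fold lower in fAb.

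No gene that makes or cuts the amyloid precursor passed the threshold. App itself read 464, 473, 481 and 475 CPM in the oAb libraries and 433, 428, 475 and 476 CPM in the fAb libraries, beside 205 to 259 CPM in scramble, with fAb 1 and 2 lowest and a difference of -0.06 (95% interval -0.18 to 0.05). All 16 tested genes of amyloid precursor processing had intervals within 1.5-fold, beside 82.1% of all genes, and their median was -0.04. Adam17, an alpha-secretase, gave 0.08 and Aph1a, a subunit of gamma-secretase, gave -0.12.

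No gene of the degradation lists passed the threshold. All 40 lysosomal genes had intervals within 1.5-fold, beside 82.1% of all genes. Of the 40, 0 had an unadjusted p under 0.05 in either direction, and the median was -0.03. Ctss, cathepsin S, differed by -0.02 (-0.17 to 0.13), and the ends of the list were Ids (0.12) and Gaa (-0.22), both hydrolases. All 27 proteasome genes also lay within 1.5-fold, with a median of -0.03, and at an unadjusted p under 0.05 there were 4 lower and 1 higher, beside 8% and 4.79% of all genes. In 3 of the 27 every fAb library was below every oAb library, beside 3.25% of all genes. In autophagy and TFEB signalling 32 of 35 intervals lay within 1.5-fold, and the median over the 35 genes was 0.00. Sqstm1, the autophagy receptor p62, had the smallest unadjusted p of these. It read 952, 991, 917 and 887 CPM in the oAb libraries and 765, 764, 809 and 870.1 CPM in the fAb libraries, every fAb library below every oAb library, with a difference of -0.22 (95% interval -0.36 to -0.09) and an unadjusted p of 0.00335. Against oAb 3 and 4 it gave -0.16, and against oAb 1 and 2 -0.28 (edgeR adjusted p 0.0227).

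Tfeb, the transcription factor that controls lysosomal genes, was, after Timm23 and Gm10273, the fixed gene whose difference moved most with the choice of oAb libraries. It read 9.60, 9.68, 3.67 and 5.47 CPM in oAb libraries 1 to 4 and 4.23, 2.85, 4.72 and 4.20 CPM in fAb libraries 1 to 4, beside 8.39, 15.3, 21.8 and 18.8 CPM in scramble. Among the 8 treated libraries oAb 1 and 2 were highest, and oAb 3 and 4 lay within or near the fAb range. Every scramble library but library 1 was higher than oAb 1 and 2. The difference was -0.83 (95% interval -1.53 to -0.13) over all 8 libraries (unadjusted p 0.0256), -0.19 against oAb 3 and 4, and -1.28 against oAb 1 and 2, the last with an edgeR adjusted p of 0.00325. With each library corrected for GC content, the difference over all 8 was -0.39.

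In the stress programmes no gene passed the threshold either, and a few had wide intervals. All 22 tested genes of the unfolded protein response, which answers misfolded protein in the endoplasmic reticulum, lay within 1.5-fold, beside 82.1% of all genes. Their median was 0.03. Hspa5, the chaperone BiP, read 2009.7, 2056, 2047 and 2030.2 CPM in the oAb libraries and 2089, 2160.2, 2074 and 2062 CPM in the fAb libraries, with every fAb library above every oAb library by a small margin, a difference of 0.04 (-0.07 to 0.15). In the integrated stress response 28 of 31 intervals lay within 1.5-fold, and the list's median was -0.05. The low end was Cebpb, a transcription factor of inflammation, which read 73.4, 84.6, 20.8 and 23.1 CPM in the oAb libraries and 23.03, 22.5, 25.5 and 26.8 CPM in the fAb libraries. Only oAb 1 and 2 were high, and the difference of -1.04 over 8 libraries was 0.17 against oAb 3 and 4, and -0.29 over 8 libraries after the GC correction. Among heat shock proteins 16 of 18 lay within 1.5-fold. The low end was the inducible chaperone Hspa1b, which read 50.6, 47.7, 8.01 and 12.3 CPM in the oAb libraries and 10.2, 7.15, 7.61 and 9.98 CPM in the fAb libraries, a difference of -1.76 that was -0.20 against oAb 3 and 4 and -2.50 against oAb 1 and 2 (edgeR adjusted p 2.67e-05). Of Hspa1b's 50-base words 62.3% also occur in other genes, mainly its neighbour Hspa1a, so its count is uncertain.

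NRF2, the factor that answers oxidants, had 5 target genes higher and 3 lower at an unadjusted p under 0.05 among 25 tested, beside 4.79% and 8% of all genes. The list's median was 0.04, and it turned to -0.07 against oAb 3 and 4. Hmox1, heme oxygenase 1, read 558, 592, 590.2 and 614 CPM in the oAb libraries and 541, 512, 577 and 606 CPM in the fAb libraries, beside 49.0 to 63.6 CPM in scramble, overlapping, with a difference of -0.07 (95% interval -0.20 to 0.06). The higher ones were Gclc (0.24), Gsr (0.13), Me1 (0.12), Prdx1 (0.19) and Cat (0.12), enzymes of glutathione synthesis and recycling, NADPH supply and peroxide removal. The lower ones were Sqstm1 and the 2 ferritin chains. Fth1, the heavy chain, was at 45742 TPM in oAb and 40332 TPM in fAb. It read 15149.8, 16158, 14016 and 14209 CPM in the oAb libraries and 11449, 11871, 13331 and 12990.3 CPM in the fAb libraries. All fAb libraries were below all oAb libraries, and the difference was -0.26 (95% interval -0.44 to -0.09), or -0.17 against oAb 3 and 4 and -0.34 against oAb 1 and 2 (edgeR adjusted p 0.0197). Ftl1, the light chain, gave -0.24 (-0.45 to -0.03), or -0.06 after the GC correction, with 50.9% of its words shared with other genes. Ncoa4, the receptor that delivers ferritin to autophagy, read 138, 145, 165 and 169 CPM in the oAb libraries and 169, 179.5, 178 and 172 CPM in the fAb libraries, all fAb above all oAb, a difference of 0.18 (95% interval 0.04 to 0.32), or 0.08 against oAb 3 and 4 and 0.30 against oAb 1 and 2 (edgeR adjusted p 0.00738). Slc40a1, the iron exporter ferroportin, gave 0.27 (95% interval -0.06 to 0.60) at 3.09, 4.37, 4.72 and 3.88 CPM in oAb and 5.22, 5.14, 4.20 and 4.74 CPM in fAb.

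Metabolic and cell cycle lists did not separate the preparations either. Glycolysis and hypoxia had a median of -0.07 with 26 of 28 genes within 1.5-fold, and Gapdh gave -0.12 (-0.34 to 0.10). Cholesterol and fatty acid synthesis had 5 genes higher and 2 lower at an unadjusted p under 0.05 among 30, beside 4.79% and 8% of all genes, with a median of 0.02, and of -0.03 against oAb 3 and 4. Among those higher were Hmgcs1 (0.14), Insig1 (0.13), Stard4 (0.14) and Scd2 (0.14), and those lower were Tm7sf2 (-0.49) and Srebf2 (-0.28), the sterol-responsive transcription factor. Scd2, a fatty acid desaturase, read 931, 938, 844 and 911 CPM in the oAb libraries and 970.5, 968, 1055 and 999 CPM in the fAb libraries, all fAb above all oAb. Mki67, the proliferation antigen Ki-67, read 289, 279, 319 and 290.5 CPM in the oAb libraries and 302, 304, 303 and 304 CPM in the fAb libraries, and its difference was 0.04 (95% interval -0.06 to 0.15). Of 34 genes of G2 and mitosis 33 lay within 1.5-fold (median 0.04), and of 34 genes of S phase 31 (median 0.02).

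**Figure D3:**
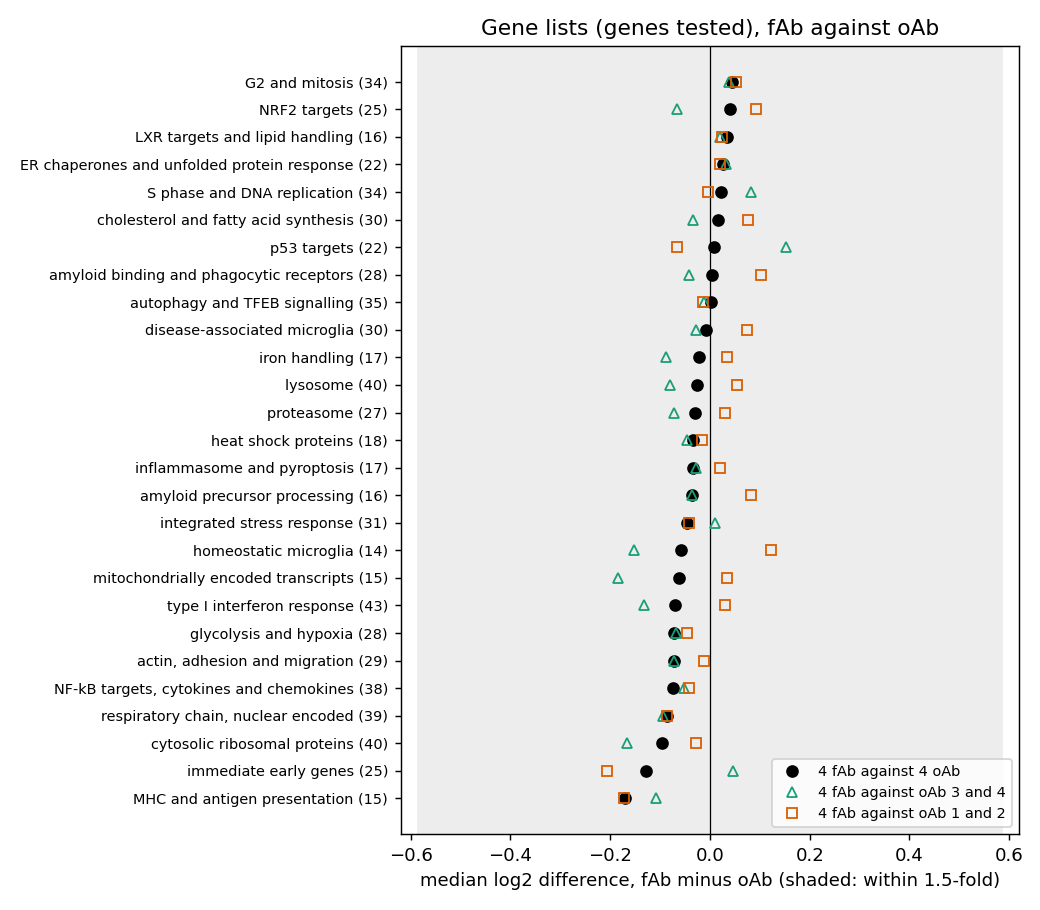
Median log2 difference, fAb minus oAb, of each gene list with at least 5 genes tested (number in brackets), against all 4 oAb libraries (black), oAb 3 and 4 (green triangles) and oAb 1 and 2 (orange squares), with the range of 1.5-fold shaded. Every median lies inside the shading, and those of immediate early genes, for example (-0.13, 0.05 and -0.21) and homeostatic microglia (-0.06, -0.15 and 0.12) take both signs.

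Among lists with at least 5 genes tested, those with the lowest medians were antigen presentation, immediate early genes, ribosomal proteins and the respiratory chain. In antigen presentation, by which MHC molecules show peptides at the cell surface, 8 of 15 genes had an unadjusted p under 0.05 and lower values in fAb, and 0 higher ones, beside 8% lower over all genes. The median was -0.17, and -0.11 against oAb 3 and 4. By library, the list's median log2 deviation from the 8-library mean was -0.15, -0.23, -0.001 and 0.004 in fAb 1 to 4. In oAb 1 to 4 it was 0.05, 0.13, -0.03 and 0.09, so fAb 3 and 4 lay above oAb 3. The list's transcripts had a median GC content of 54.3%, beside 49.2% for all genes, and after each library was corrected for GC content the median was -0.10. The 8 were the heavy chains H2-K1 (-0.18) and H2-D1 (-0.24), the peptide transporter subunits Tap1 (-0.19) and Tap2 (-0.36) and their partner Tapbp (-0.30), and the immunoproteasome subunits Psmb8 (-0.17), Psmb9 (-0.16) and Psmb10 (-0.35). H2-D1 read 1159, 1189.7, 918 and 1056 CPM in the oAb libraries and 893, 821, 953 and 992 CPM in the fAb libraries, with oAb 1 and 2 highest and oAb 3 inside the fAb range. It gave -0.09 against oAb 3 and 4 and -0.36 against oAb 1 and 2 (edgeR adjusted p 0.0145). B2m, the invariant light chain, gave -0.06 (-0.16 to 0.05).

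Immediate early genes, which respond within minutes to signals, had a median of -0.13 over 25 genes, 0.05 against oAb 3 and 4 and -0.21 against oAb 1 and 2, and 15 intervals lay within 1.5-fold. The list's transcripts had a median GC content of 54.6%, and the corrected median was 0.00. Jund, an AP-1 subunit, was lowest at -1.89 (-3.55 to -0.23), or -0.25 against oAb 3 and 4. Zfp36, which destabilises cytokine transcripts, read 194, 195, 160.4 and 183 CPM in the oAb libraries and 166, 137, 179 and 182 CPM in the fAb libraries, overlapping, with a difference of -0.14 (95% interval -0.35 to 0.07). Cytosolic ribosomal proteins were negative in 37 of 40 genes (median -0.10, -0.17 against oAb 3 and 4, 36 within 1.5-fold, 8 lower and 0 higher at an unadjusted p under 0.05, beside 8% and 4.79% of all genes), and nuclear encoded genes of the respiratory chain in 33 of 39 (median -0.09, 34 within 1.5-fold). The respiratory chain's median was -0.09 against oAb 3 and 4 and -0.09 against oAb 1 and 2. Of its genes 11 were lower at an unadjusted p under 0.05, from Cox5b (-0.66) to Cyc1 (-0.14), both parts of the electron transport complexes, and 0 were higher, beside the same shares of all genes. The respiratory chain's median log2 deviation from the 8-library mean was -0.11, -0.09, -0.01 and 0.00 in fAb libraries 1 to 4. In oAb libraries 1 to 4 it was 0.02, 0.06, 0.03 and 0.06. Ribosomal proteins gave -0.14, -0.13, 0.04 and 0.02 in fAb and -0.06, 0.03, 0.10 and 0.12 in oAb. In both lists the low fAb values lay in fAb 1 and 2. Transcripts from the mitochondrial genome had a median of -0.06, and -0.19 against oAb 3 and 4. The 3 replication-dependent histone genes tested, of 12 listed, had a median of -0.41 and of 0.25 against oAb 3 and 4. Whether their RNA carried a poly(A) tail was not tested. No list was tested as a set.

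The 12 genes with the smallest unadjusted p were chosen after their values were seen, and none passed the adjusted threshold in edgeR over the 8 libraries (adjusted p 0.375 for each). The smallest p was that of Deptor (chr15:55112317-55259271 of mm10), an inhibitor of the growth kinase mTOR. It read 4.40, 4.44, 4.66 and 4.45 CPM in oAb libraries 1 to 4 and 7.08, 6.76, 6.03 and 6.99 CPM in fAb libraries 1 to 4, beside 31.6 to 74.3 CPM in scramble. All fAb libraries lay above all oAb libraries, and all 8 lay under every scramble library. The difference was 0.58 (95% interval 0.35 to 0.82), unadjusted p 1.76e-04, which is 1.27 to 1.76 times the oAb level, and it was 0.58 against oAb 3 and 4 and 0.60 against oAb 1 and 2.

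Sdc1, the heparan sulphate proteoglycan syndecan 1, read 303, 303, 277 and 297 CPM in the oAb libraries and 229, 219, 248 and 259.6 CPM in the fAb libraries, all fAb below all oAb. The difference was -0.30 (95% interval -0.44 to -0.17), or -0.25 against oAb 3 and 4, and DESeq2 called it with an adjusted p of 0.00642. Mmp12, the macrophage elastase, read 12.2, 13.7, 12.8 and 13.7 CPM in the oAb libraries and 19.1, 19.0, 15.0 and 17.3 CPM in the fAb libraries, all fAb above all oAb, beside 0.904 to 1.49 CPM in scramble, with a difference of 0.43 (95% interval 0.23 to 0.64). Tet2, which oxidises methylcytosine, read 72.6, 58.6, 71.7 and 60.6 CPM in the oAb libraries and 89.1, 84.3, 83.7 and 78.8 CPM in the fAb libraries, with the same order of the groups. Its difference was 0.35 (95% interval 0.18 to 0.52), and DESeq2 called it (adjusted p 0.0458). Igfbp4, which binds insulin-like growth factors, read 21.3, 21.4, 22.8 and 21.4 CPM in the oAb libraries and 14.1, 14.5, 17.3 and 18.4 CPM in the fAb libraries, all fAb below all oAb, a difference of -0.44 (95% interval -0.64 to -0.24).

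The remaining genes of the 12 were Snx20, a sorting nexin (-0.40, -0.59 to -0.22), Tlcd1 (-0.59), Lrrc58 (0.30), the olfactory receptor gene Olfr77 (-1.29, from at most 5.17 CPM), Itgam, Rpl35 (-0.23) and Cycs, cytochrome c (-0.32, -0.47 to -0.16). In all 12 the groups did not overlap, which choosing them by p favours. Their sign against oAb 3 and 4 and against oAb 1 and 2 follows from that and is no further check. Against oAb 1 and 2, libraries that also entered the choice, all but Igfbp4, Mmp12 and Lrrc58 passed the adjusted threshold in edgeR. Of Cycs's 50-base words 25.9% occur in other genes, and 66.2% of Rpl35's exon bases lie opposite another gene's exons, and whether counting used strand is not known here. Besides Sdc1, Snx20, Olfr77, Itgam, Rpl35, Tet2 and Cycs, the 16 genes that DESeq2 called were Txnip (0.32), Dab2 (0.19), Vim (-0.27), Cst3 (-0.54), Rnaset2a (-0.87) and the predicted genes Gm26825, Gm47428, Gm26619 and Gm5148 (-2.10 to -1.35). Txnip, which inhibits thioredoxin, gave 0.31 (0.16 to 0.47) in edgeR.

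**Figure D4:**
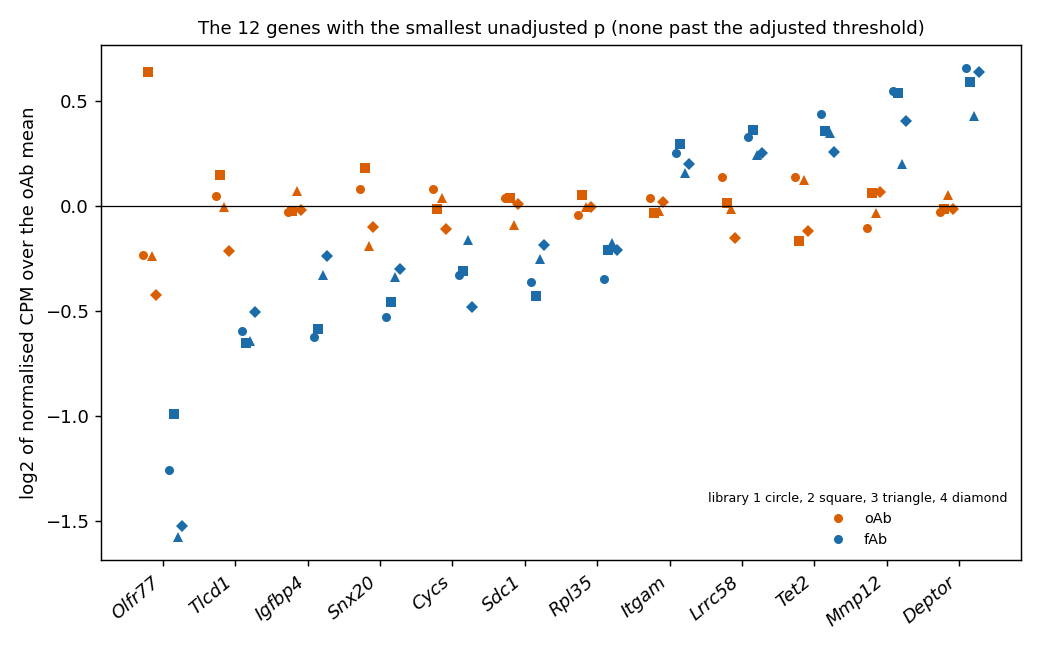
Log2 of normalised CPM over the mean of the 4 oAb libraries for the 12 genes with the smallest unadjusted p, orange for oAb and blue for fAb, with a marker shape per library number. In each gene the 4 fAb points lie on one side of the 4 oAb points, from Olfr77 at a difference of -1.29 to Deptor at 0.58.

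oAb 1 and 2 also differed from the other 6 libraries at a pair of genes with nearly the same sequence. Timm23 (chr14:32180162-32201898 of mm10), a subunit of the mitochondrial import channel, and the predicted gene Gm10273 (chr10:59395632-59396757) have transcripts of 1173 and 1126 bases. In their alignment 1124 bases were equal, with an identical stretch of 1003 bases. There was 1 single-base substitution, outside the coding sequence, and other unmatched bases are not counted in it. Timm23 took 97.5% and 97.6% of the pair's counts in oAb 1 and 2, 24.4% and 38.5% in oAb 3 and 4, and 17.5% to 25.0% in the 4 fAb libraries. In scramble the share was 26.5% in library 1 and 94.6% to 98.3% in libraries 2 to 4. Timm23 read 199, 206, 52.2 and 81.5 CPM in the oAb libraries and 46.5, 35.9, 35.5 and 45.4 CPM in the fAb libraries, all fAb below all oAb, a difference of -1.72 (95% interval -2.85 to -0.59), and Gm10273 read 5.06, 5.02, 162 and 130.4 CPM in the oAb libraries and 139.6, 165, 167 and 157 CPM in the fAb libraries, a difference of 1.06 (95% interval -1.48 to 3.59). Neither passed the threshold over all 8 libraries. Against oAb 1 and 2 both did, Timm23 at -2.31 (edgeR adjusted p 2.65e-05) and Gm10273 at 4.96 (4.65e-08), and against oAb 3 and 4 the differences were -0.70 and 0.12. All these values rest on the split of reads between copies.

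With all 12 libraries and a term for the 2 sets of libraries (Timm23 share above or below 50%), 359 of 11208 genes went with the set, 349 of them higher in the set with the high share. Their transcripts were rich in G and C, with a median GC content of 58.3% for the 349 beside 49.2% over all genes and 43.8% for the 10 lower ones. The set was defined from the counts of Timm23 and Gm10273, which were themselves tested, so the 359 calls are descriptive. Between fAb and oAb edgeR gave 0 calls with that term and 0 without it, so the 0 says nothing about the term. At an unadjusted p under 0.05 in edgeR there were 131 genes with it and 277 without it, over all 12 libraries. The set cannot be told apart from oAb 1 and 2 within these 8 libraries, since no fAb library belongs to it.

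The GC content of a gene's longest transcript moved with the difference between fAb and oAb. Across 10871 genes, Spearman's rho between GC content and the log2 difference was -0.52 (-0.26 against oAb 3 and 4), as a description of genes that share their libraries. In the quintile of genes with the lowest GC content the median difference was 0.07, and in the quintile with the highest it was -0.16. The highest quintile deviated from the mean of the 8 libraries by 0.17 and 0.19 in oAb 1 and 2, by -0.09 and 0.05 in oAb 3 and 4, and by -0.09, -0.25, -0.02 and 0.03 in the fAb libraries, so libraries of 1 group differed by more than the group medians did. Correcting each library for GC content removed the relation, as it is built to (rho 0.03). Genes past the threshold numbered 0 before and after it. Against oAb 1 and 2, genes called lower in fAb had a median GC content of 56.8% and those called higher 44.5%. Calls against oAb 1 and 2 numbered 845 without the correction (115 higher, 730 lower) and 837 with it (346 higher, 491 lower). With the correction the difference over all 8 libraries went from -2.17 to -1.27 in the zinc finger gene Zfp771 and from -1.04 to -0.29 in Cebpb, while that of Fth1 was -0.26 before and -0.26 after, and that of Timm23 -1.72 before and after.

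**Figure D5:**
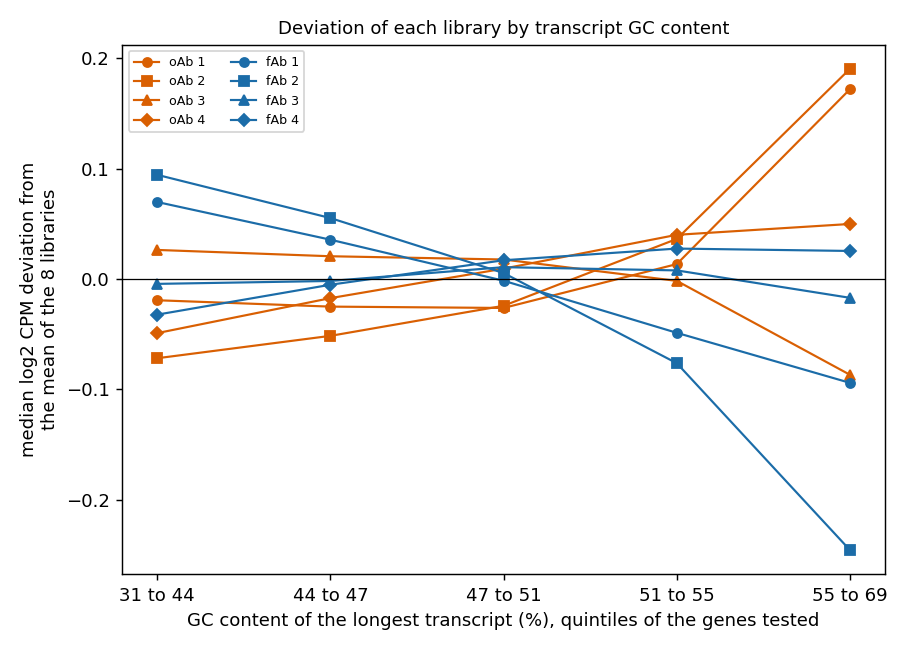
Median deviation of log2 CPM from the mean of the 8 libraries, by quintiles of the genes tested ordered by the GC content of the longest transcript, with 1 line per library, orange for oAb and blue for fAb. In the highest quintile oAb 1 and 2 lie at 0.17 and 0.19 and fAb 2 at -0.25, with the other 5 libraries between.

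The coding sequences of 4 genes show the range of base composition. They come from the 8 lower and the 4 higher genes with the smallest p against oAb 1 and 2, and were picked for this display as the 2 of the 8 with the highest GC content of the transcript (68.7% and 67.2%, the other 6 from 55.4% to 59.9%) and the 2 of the 4 with the lowest (36.5% and 39.95%, the others 44.7% and 45.3%), so they illustrate the relation and do not test it. Each line is 90 bases from the middle of the coding sequence in GENCODE M21, 5′ to 3′, with G and C in capitals.
Zfp771: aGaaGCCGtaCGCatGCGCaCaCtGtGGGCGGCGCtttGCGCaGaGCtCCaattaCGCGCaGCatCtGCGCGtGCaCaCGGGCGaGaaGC
Cebpb: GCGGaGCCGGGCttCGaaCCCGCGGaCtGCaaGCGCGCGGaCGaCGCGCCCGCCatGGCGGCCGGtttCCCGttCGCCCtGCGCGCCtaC
Rap2c: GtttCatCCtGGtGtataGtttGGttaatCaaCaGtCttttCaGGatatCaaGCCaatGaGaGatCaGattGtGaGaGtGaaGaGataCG
Cd53: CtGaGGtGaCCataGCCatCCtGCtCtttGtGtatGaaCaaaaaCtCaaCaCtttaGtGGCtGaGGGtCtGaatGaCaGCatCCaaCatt
G and C make up 64.4% and 76.7% of the first 2 stretches and 38.9% and 44.4% of the last 2. Zfp771, a zinc finger gene at chr7:127244274-127254803, read 8.61, 9.83, 0.656 and 1.59 CPM in the oAb libraries and 1.04, 1.34, 1.18 and 0.973 CPM in the fAb libraries. Only oAb 1 and 2 were high, with a difference of -3.01 against them (edgeR adjusted p 2.71e-05) and 0.03 against oAb 3 and 4. Cebpb (chr2:167688915-167690418) was also highest in oAb 1 and 2, with -1.70 against them (edgeR adjusted p 2.65e-05). Rap2c, a small GTPase at chrX:51003912-51018018, read 78.6, 79.7, 110.5 and 100.3 CPM in the oAb libraries and 94.9, 101, 102 and 97.1 CPM in the fAb libraries, with oAb 1 and 2 lowest. It gave 0.32 against them and -0.08 against oAb 3 and 4. Cd53, a tetraspanin of leukocytes at chr3:106759921-106790149, read 177, 169, 200.3 and 197 CPM in the oAb libraries and 206, 213, 208 and 207 CPM in the fAb libraries, all fAb above all oAb, with 0.27 against oAb 1 and 2 and 0.09 against oAb 3 and 4.

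The other genes with the smallest p against oAb 1 and 2 that were lower in fAb were highest in oAb 1 and 2, as that choice favours. Hnrnpa0, an RNA-binding protein, read 132, 141, 58.5 and 61.0 CPM in the oAb libraries and 55.9, 52.1, 61.9 and 59.3 CPM in the fAb libraries. Rpl27, a ribosomal protein, read 106, 111, 23.8 and 27.9 CPM in the oAb libraries and 24.2, 22.96, 32.8 and 23.9 CPM in the fAb libraries, and its difference was -2.07 against oAb 1 and 2 and 0.02 against oAb 3 and 4. In both genes oAb 3 and 4 lay within the range of the fAb libraries. Trir, Pgp and Tmsb10 gave -1.24, -1.92 and -0.77 against oAb 1 and 2 and -0.11, -0.10 and -0.04 against oAb 3 and 4. Of the words of Rpl27 and Tmsb10, 23.5% and 27.0% occur in other genes. Cers6, a ceramide synthase, read 337, 333, 452 and 436 CPM in the oAb libraries and 389, 403, 428 and 417 CPM in the fAb libraries, with 0.28 against oAb 1 and 2 and -0.10 against oAb 3 and 4. Of the list genes described above, Jund (-2.65), Cox5b (-1.03), Tm7sf2 (-0.75), Tapbp (-0.40), Nfkb2 (-0.36), H2-K1 (-0.32), Prdx1 (0.25) and Pilra (0.30) also passed the threshold against oAb 1 and 2, and did not against oAb 3 and 4, where they gave -0.25, -0.17, -0.18, -0.19, -0.13, -0.02, 0.15 and 0.07 in that order.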

How the data were processed

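Raw read counts for 41325 genes come in 2 deposited tables, per the file headers, 1 for each preparation and both with the scramble libraries. TPM, a level scaled by gene length and depth, was made by the authors and deposited beside the counts, and is used here only for levels between genes. The submitters' processing notes name the build mm10. The aligner, the counter and its use of strand were not given in the sources used here. Both tables were joined by identifier, and their scramble counts are identical in both.

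Samples were grouped by title. The 4 fAb and 4 oAb libraries were fitted in edgeR 4.0.16 (R 4.3.3) with filterByExpr at a minimum count of 10, TMM scaling, a robust two-sided quasi-likelihood F test, and Benjamini-Hochberg adjustment over all genes at 0.05. Standard errors and 95% intervals come from the same fit, and CPM are TMM-scaled over 12 libraries. The fit was tested on simulated data. The libraries held 14566206 to 18124419 counts, and the intervals take in the spread between libraries as well as counting error. Alternatives were other scalings and filters, DESeq2 1.42.0, limma voom 3.58.1, a replicate block, other sets of libraries, and, chosen after seeing the data, a correction for the GC content of the longest GENCODE M21 transcript (loess, span 0.5).

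The members and lists were chosen with earlier results of these data known. The named-gene rule (the largest changes among called genes, and 17 fixed genes) named only the fixed ones, as no gene was called. Added after the values were seen were the 2 most abundant genes of each of 28 lists, the 12 smallest p, 8 and 4 genes by p against oAb 1 and 2, the members of a list at its ends or with an unadjusted p under 0.05, and DESeq2's calls. Of 94 annotated named genes, 12 have same-strand and 23 opposite-strand exon overlap with another gene, and in 21 at least 20% of the 50-base words recur elsewhere. No 2 libraries of a group agreed within sampling noise (chi-square over its degrees of freedom, 2.97 to 20.9). Promoter windows come from RefSeq, of which 33 of 43 interferon and 26 of 38 cytokine genes had one. The text prints some of the abundant genes that these rules name, not all of them. The result of 1 gene is not reported here.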

Additional observations from a re-analysis of the deposited data

Results flagged for a closer look

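In 196 groups of 4 libraries checked, 1 library lay far from the other 3 in 10, and chance alone gives about 1 in 20. In oAb, library 4 was high for Nos2 (301 CPM, the others 270.4 to 273 CPM), library 2 for Olfr77 (5.17 CPM, the others 2.48 to 2.83 CPM) and library 3 for Igfbp4 (22.8 CPM, the others 21.3 to 21.4 CPM). In fAb, library 2 was low for Trem2 (55.1 CPM, the others 64.6 to 66.2 CPM) and library 3 high for Rpl27 (32.8 CPM, the others 22.96 to 24.2 CPM). Library 1 of fAb was low for 5 abundant genes. These were Calr, a calcium-binding chaperone of the endoplasmic reticulum (1712 CPM, the others 1820 to 1837 CPM), Hsp90ab1, a cytosolic chaperone (3972 CPM, the others 4177 to 4202 CPM), Pgk1, a glycolytic kinase (1811 CPM, the others 1901 to 1914 CPM), Ctss (1265 CPM, the others 1367 to 1375 CPM) and Mcm6, a replicative helicase subunit (297 CPM, the others 308 to 309 CPM).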

How the results depend on the processing

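The count of 0 genes past the threshold held under upper quartile scaling, scaling by DESeq2 size factors, a filter at a mean of 2 CPM, no filter at all, limma voom, all 12 libraries, the library set as a term, oAb 3 and 4 only, a threshold of 0.01, a 1.5-fold minimum and the GC correction, and it was 0 without each library in turn (lowest 0, highest 0). It was 16 with DESeq2, 845 with oAb 1 and 2 only, 1 with the GC correction and oAb 3 and 4 only, and 837 (346 higher, 491 lower) with the GC correction and oAb 1 and 2 only. The cause was not tested. Genes with an interval within 1.5-fold numbered 8548 to 8959 without each library and 9403 with the GC correction. Their share of genes tested, 82.1% in the main fit, fell to 71.6% with all 12 libraries and 75.7% with the set term. It was 74.7% with oAb 1 and 2 only, 54.4% with no filter and 89.3% with a mean of at least 2 CPM. Upper quartile scaling moved the split at an unadjusted p under 0.05 from 521 higher and 870 lower to 736 and 695. The replicate numbers did not pair the libraries (correlations of same-numbered deviations 0.289, -0.258, -0.0386 and 0.154), and with the replicate block edgeR called 0 genes, with 1365 at an unadjusted p under 0.05 (683 higher, 682 lower). That number was 277 with all 12 libraries and 131 with the library set as a term, and ran from 687 to 2053 without each library.

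Of 93 named genes tested, 54 changed sign under at least 1 of 22 alternatives, and 38 passed the threshold under at least 1, of which 32 with oAb 1 and 2 only. The signs of Phgdh (0.20), Tyrobp (0.22), Ctsz (0.25), Bax (0.55) and Pcna (-0.30) turned with the GC correction and oAb 1 and 2 only, each past the threshold there. Of 28 list medians 27 moved by more than the spread between libraries somewhere. Depth limits genes near the filter, such as Apoe and Ifnb1.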
